A study of Xenopus laevis with 2 samples.

Results

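DNA replication genes and the genes that supply its nucleotides were compared between dorsal posterior pieces of Xenopus laevis neurulae. Members were the probe sets whose single gene symbol in the platform annotation named an origin, helicase, polymerase, clamp, single-strand binding, ligation, nucleotide supply or S-phase cyclin gene. The rule uses gene symbols and no measured value, although it was drawn up with earlier results of these data known. It gave 73 probe sets for 63 genes, out of 15491 probe sets in all. The genes tk1 and timeless were sought as well, and no probe set with a single symbol matched them. The 63 genes comprised 45 of the long subgenome (suffix .L) and 18 of the short subgenome (suffix .S), because the frog is allotetraploid and carries such copies, called homeologs, of many genes.

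The array labelled Derriere depleted held RNA from embryos injected at the 4-cell stage, on the lateral side of each dorsal blastomere, with 2 ng of morpholino against Derriere and with GFP to show where it went. Morpholinos are synthetic antisense oligonucleotides that keep a transcript from being translated or spliced. The array labelled wildtype held RNA from embryos for which no injection is given in the labels. Both sets of embryos were grown to stage 18, and posterior fragments described as mostly mesoderm were dissected. Derriere (gdf3) is a secreted TGF-beta ligand of mesoderm formation and posterior patterning, and the series asked which genes depend on it.

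Each group had 1 array, so differences here are sizes without a replicate check or a test. Precision is limited by the number of arrays, and fewer cells of a type cannot be told apart from less RNA per cell. The derriere transcript gdf3.S read 2318.6 in the array labelled Derriere depleted, against 552.0 in the array labelled wildtype, which goes against the label, although a morpholino can act without lowering its target's transcript. The direction of every ratio below therefore rests on the labels as given, and the arrays are called depleted-labelled and wildtype-labelled. All 6 posterior mesoderm markers were measured, and their probe sets summed to 7813.6 in the depleted-labelled array and 7340.1 in the wildtype-labelled array. Their 7 genes had a median log2 ratio of 0.07, with 5 above 0. Over 7 epidermal marker genes the median log2 ratio was 0.52, with 5 above 0, and their probe sets summed to 10237.9 in the depleted-labelled array and 10494.9 in the wildtype-labelled array. Neural plate markers summed to 1670.0 in the depleted-labelled array and 1886.4 in the wildtype-labelled array, and notochord markers to 564.2 in the depleted-labelled array and 723.8 in the wildtype-labelled array. The 5 measured neural plate genes had a median log2 ratio of -0.18, with 3 below 0. All 4 measured notochord genes were below 0, with a median of -0.22. The single endoderm marker found under its listed symbol, sox17a, summed to 190.7 in the depleted-labelled array and 91.1 in the wildtype-labelled array. Its measured copy sox17a.L had a log2 ratio of 1.39, from 147.8 in the depleted-labelled array and 56.2 in the wildtype-labelled array. It reached the signal filter, a mean of 75 over both arrays, only through the depleted-labelled array. The copy sox17a.S, under the filter, had a log2 ratio of 0.29. The epidermal gene cdh1.S also passed only through the depleted-labelled array, at 101.2 there and 52 in the wildtype-labelled array, a log2 ratio of 0.95. Signal at the 3' end over that at the 5' end, a sign of RNA quality, came to 3.54 for beta-actin and 24.3 for Gapd in the depleted-labelled array, against 4.74 and 32.3 in the wildtype-labelled array. It was 126.3 for a3Act and 71.6 for a1Act in the depleted-labelled array, against 206.5 and 65.3 in the wildtype-labelled array, so 3 of the 4 controls were lower and 1 higher. The part of these differences in the values below was not tested.

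Replication begins with licensing, in which the origin recognition complex, Cdc6 and Cdt1 load the ring of Mcm proteins onto DNA, and geminin holds Cdt1 in check. S-phase kinases then bring Cdc45 and GINS to the ring to form the active helicase, primase and polymerase alpha start each strand, and the clamp PCNA, placed by replication factor C, tethers the polymerases that extend it. Much of this order was worked out in Xenopus egg extracts, because the egg stores large amounts of these proteins for the fast cleavage cycles.

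No measured replication gene differed by 1.5-fold or more between the arrays. A gene counted as measured when a probe set's mean signal over both arrays reached 75, the median of all probe sets, which 46 of the 63 genes did through 49 probe sets. Their log2 ratios of depleted-labelled over wildtype-labelled signal ran from -0.53 to 0.39 with a median of 0.03. Over all 4543 measured genes the median was -0.01, with 0.374% at least 2-fold higher, 0.242% at least 2-fold lower, 2.00% at least 1.5-fold higher and 3.08% at least 1.5-fold lower. Of the 46 replication genes, 24 were above 0, or 52.2%, against 49.2% of all measured genes. A count of 0 past 1.5-fold among 46 genes lies close to that background.

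Most replication genes, but not all, differed by less than the scatter between probe sets of 1 gene. The log2 ratios of different probe sets of 1 gene, all taken from the same pair of arrays, scattered with a pooled SD of 0.228 in 580 genes, and 30 of the 46 replication genes were closer to 0 than that. Over all measured genes 58.2% were, against 65.2% of the replication genes. The SD of the log2 ratio was 0.24 over the replication genes and 0.33 over all measured genes. The pooled SD of 0.228 reflects differences between probe sets read on the same pair of arrays. It leaves out the spread between embryos, RNA preparations and arrays. Kept replication probe sets had signals of 80.0 to 2156.7 with a median of 233.3 in the depleted-labelled array, and of 70.2 to 1790.0 with a median of 234.4 in the wildtype-labelled array.

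**Figure D1:**
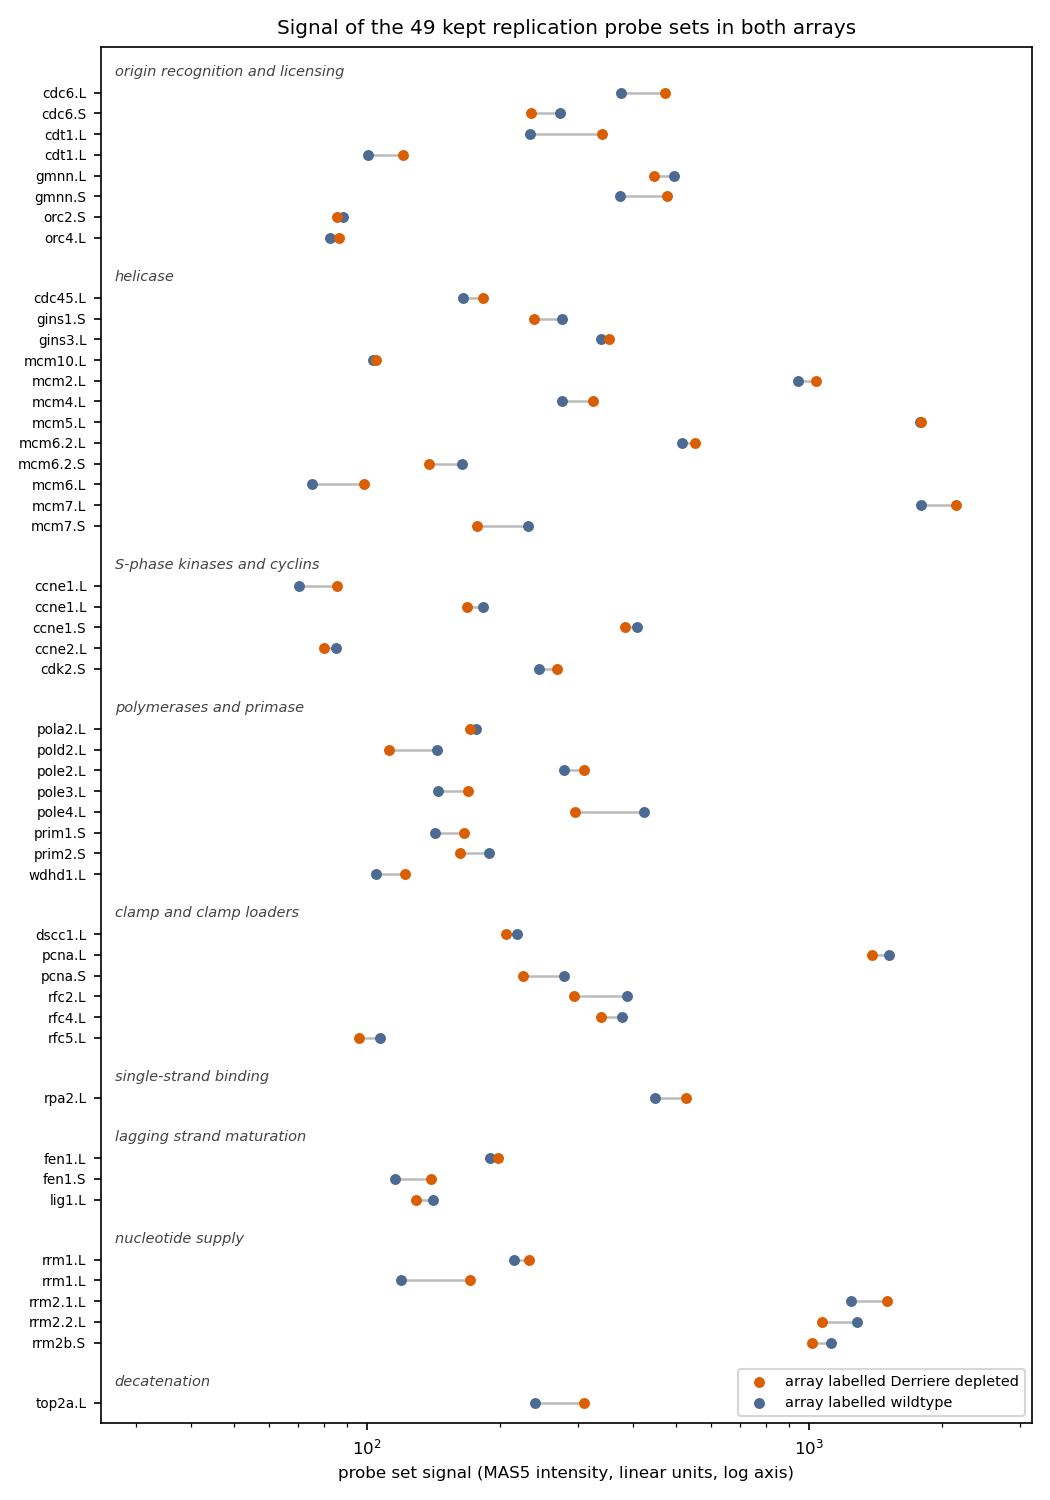
Signal of each kept replication probe set (MAS5 intensity, linear units on a log axis) in the depleted-labelled array (orange) and in the wildtype-labelled array (blue), grouped by replication step; a gene with 2 kept probe sets has 2 rows. The pairs of points lie close together in every step, and both directions occur in each step of more than 1 gene except the clamp and its loaders.

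**Figure D2:**
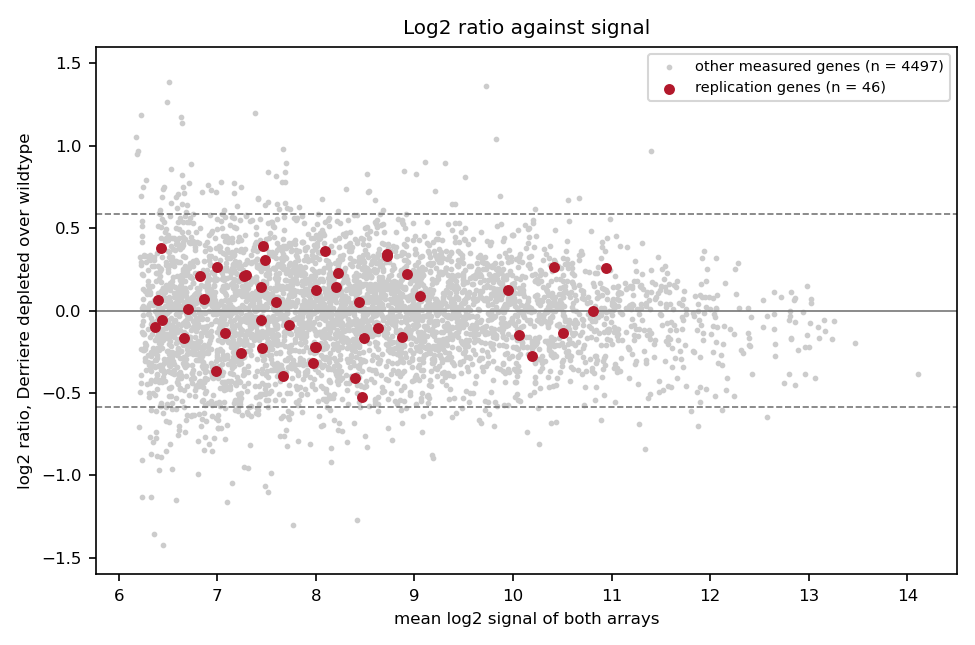
Log2 ratio (Derriere depleted over wildtype) against mean log2 signal of both arrays for the 46 measured replication genes (red) and the other 4497 measured genes (grey), with 8 genes outside the drawn range and dashed lines at 1.5-fold. All red points lie between the dashed lines, from -0.53 to 0.39.

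The ratios of dim genes were more scattered. With all measured genes ranked by mean log2 signal into 4 equal groups, 9.16% of the dimmest were past 1.5-fold, higher or lower, against 2.38% of the brightest. The replication genes fell into these groups as 11, 18, 10 and 7 from dim to bright, so most were neither at the dim nor at the bright end.

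Among the licensing genes, Cdt1, Cdc6 of the long subgenome and geminin of the short subgenome had the highest ratios. The loading factor cdt1.L had 2 kept probe sets, which read 340.3 and 120.5 in the depleted-labelled array, against 234.4 and 100.6 in the wildtype-labelled array. Both were higher in the depleted-labelled array, with log2 ratios of 0.53 and 0.25, and the gene's mean of 0.39 was the highest of all 46 replication genes. The ATPase gene cdc6.L, which works with Cdt1, read 473.7 in the depleted-labelled array and 375.0 in the wildtype-labelled array, a log2 ratio of 0.33. Its homeolog cdc6.S went the other way, at 235.5 in the depleted-labelled array and 273.4 in the wildtype-labelled array, a log2 ratio of -0.22. The Cdt1 inhibitor gene gmnn.S read 477.2 in the depleted-labelled array and 373.3 in the wildtype-labelled array, a log2 ratio of 0.35. Its homeolog gmnn.L had the opposite sign, at 446.5 in the depleted-labelled array and 495.4 in the wildtype-labelled array, or -0.16. For Cdc6 and geminin, where both copies were measured, the copies thus had opposite signs.

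Genes of the origin recognition complex, which marks the sites where the ring is loaded, were dim on this array. Of 6 genes only orc2.S and orc4.L passed the signal filter. The gene orc2.S read 85.5 in the depleted-labelled array and 88.5 in the wildtype-labelled array, a log2 ratio of -0.06. The gene orc4.L read 86.6 in the depleted-labelled array and 82.4 in the wildtype-labelled array, a log2 ratio of 0.06. Both differences were far smaller than the spread between probe sets of 1 gene. The largest subunit, orc1.L, read 61.4 in the depleted-labelled array and 73.9 in the wildtype-labelled array, and orc3.S read 70.4 in the depleted-labelled array and 76.5 in the wildtype-labelled array, both under the filter. The brighter of 2 probe sets of orc6.L read 44.9 in the depleted-labelled array and 59.7 in the wildtype-labelled array. The other orc6.L probe set and that of orc5.L lay below 19.7 in both arrays, the floor set at the 25th percentile of signal, and give no ratio. The 7 measured genes of origin recognition and licensing together had a median of 0.06, with 4 above 0.

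The genes of the Mcm ring, the motor of the replicative helicase, lay on both sides of 0. The 8 measured genes of the ring had a median log2 ratio of 0.11, with 5 above 0 and a range of -0.40 to 0.38. The share above 0 was 62.5%, against 49.2% of all measured genes. The gene mcm6.L, known in Xenopus as the maternal form of Mcm6, read 98.6 in the depleted-labelled array and 75.2 in the wildtype-labelled array, a log2 ratio of 0.38. Its signal was near the filter. The zygotic form had both homeologs measured. Its copy mcm6.2.L read 551.6 in the depleted-labelled array and 516.5 in the wildtype-labelled array, a log2 ratio of 0.09. Its copy mcm6.2.S read 138.4 in the depleted-labelled array and 164.3 in the wildtype-labelled array, a log2 ratio of -0.26. A second, dimmer probe set of mcm6.2.S gave -0.30, close to the first. The maternal form and the long copy of the zygotic form were therefore above 0 and the short copy below.

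The other ring subunits gave ratios on both sides of 0. The gene mcm7.L read 2156.7 in the depleted-labelled array and 1790.0 in the wildtype-labelled array, a log2 ratio of 0.26. Its homeolog mcm7.S read 177.1 in the depleted-labelled array and 231.8 in the wildtype-labelled array, at -0.40 the lowest of the measured helicase genes. The gap of 0.66 between these copies was the widest of the homeolog pairs described below. The gene mcm4.L read 324.7 in the depleted-labelled array and 276.0 in the wildtype-labelled array, a log2 ratio of 0.23. The gene mcm2.L read 1036.2 in the depleted-labelled array and 944.8 in the wildtype-labelled array, a log2 ratio of 0.12. The gene mcm5.L hardly differed, at 1794.4 in the depleted-labelled array and 1789.8 in the wildtype-labelled array. No probe set of mcm3.L, mcm4.S or mcm5.S passed the filter. The dim gene mcm4.S read 83 in the depleted-labelled array and 47.3 in the wildtype-labelled array, while mcm3.L read 50.7 in the depleted-labelled array and 75.2 in the wildtype-labelled array. The dim gene mcm5.S read 42.6 in the depleted-labelled array and 54.4 in the wildtype-labelled array, so the dim subunits did not share a direction either.

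The partners that activate the ring differed little. The gene cdc45.L, whose product joins the ring to form the helicase, read 183.4 in the depleted-labelled array and 165.1 in the wildtype-labelled array, a log2 ratio of 0.14. The GINS subunit gene gins3.L read 353.2 in the depleted-labelled array and 339.3 in the wildtype-labelled array, and gins1.S read 238.4 in the depleted-labelled array and 276.0 in the wildtype-labelled array. Their log2 ratios were 0.05 and -0.22, so the measured subunits of this complex lay on either side of 0. The other GINS genes, gins2.L and gins4.L, lay below the floor in both arrays. The gene mcm10.L, which acts in helicase activation and is no ring subunit, read 104.9 in the depleted-labelled array and 103.5 in the wildtype-labelled array. The gene mcm8.L, a relative that works in recombination, was under the filter at 64.9 in the depleted-labelled array and 61.3 in the wildtype-labelled array. In all, 8 of the 12 measured helicase genes were above 0, and their median was 0.07.

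The genes of S-phase kinases and cyclins differed little, with an SD of 0.12 and a median of -0.01 over 4 genes. The kinase gene cdk2.S read 268.9 in the depleted-labelled array and 245.4 in the wildtype-labelled array, a log2 ratio of 0.12. Its partner gene ccne1.S, for cyclin E1, read 383 in the depleted-labelled array and 408.9 in the wildtype-labelled array, a log2 ratio of -0.10. The gene ccne2.L, for cyclin E2, gave -0.10 as well, from 80.0 in the depleted-labelled array and 85.2 in the wildtype-labelled array. For ccne1.L the probe sets disagreed: the brightest gave -0.13, the next 0.28 and the dimmest, under the filter, 0.51, so its mean of 0.07 has no settled direction. The gene cdc7.L, the kinase that phosphorylates the ring, was barely detected, at 5.7 in the depleted-labelled array, below the floor, and 27.1 in the wildtype-labelled array.

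**Figure D3:**
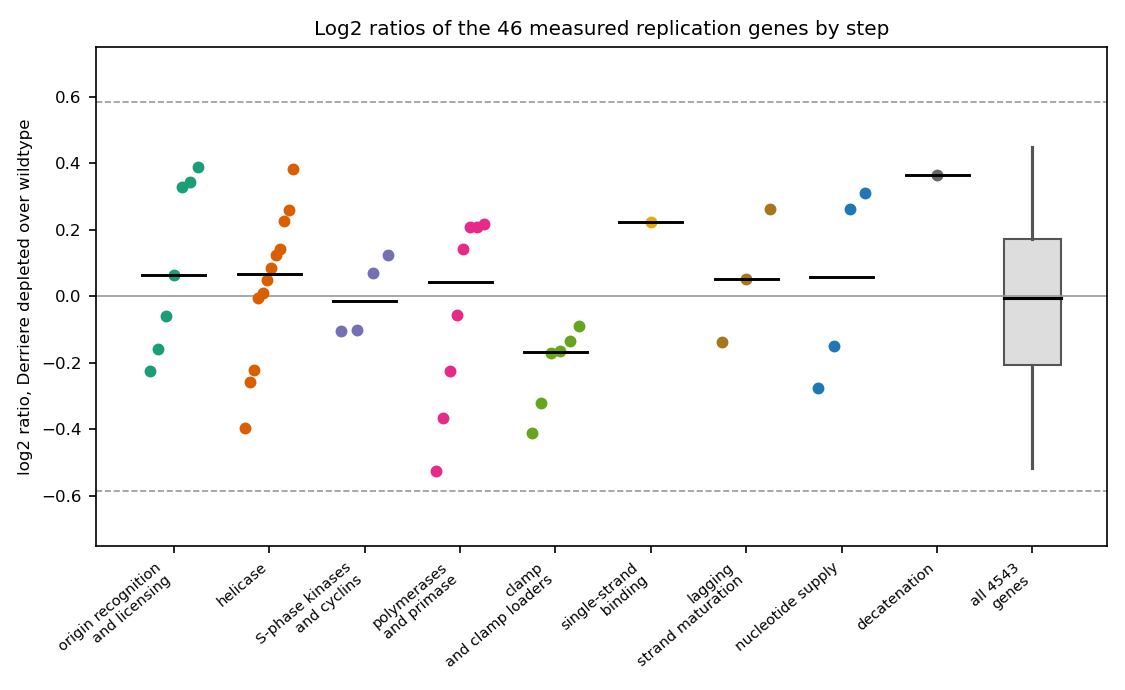
Log2 ratio (Derriere depleted over wildtype) of each measured replication gene by step, with the median of each step as a black bar, a box for all 4543 measured genes (quartiles, whiskers from percentile 5 to percentile 95) and dashed lines at 1.5-fold. The 6 clamp and clamp loader genes all lie below 0, from -0.41 to -0.09, while the other steps of more than 1 gene straddle it.

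Genes of polymerase alpha and primase, which make the RNA-DNA primers, were split. The catalytic primase gene prim1.S read 165.9 in the depleted-labelled array and 142.8 in the wildtype-labelled array, a log2 ratio of 0.21. The gene of its partner subunit, prim2.S, read 162.3 in the depleted-labelled array and 188.6 in the wildtype-labelled array, a log2 ratio of -0.23. Thus the subunits of 1 enzyme differed in sign, each at a distance from 0 about as large as the spread between probe sets. The accessory subunit gene pola2.L gave -0.06, at 171.4 in the depleted-labelled array and 177.0 in the wildtype-labelled array, and a second pola2.L probe set lay below the floor. The catalytic subunit gene pola1.S was under the filter, at 52.9 in the depleted-labelled array and 61 in the wildtype-labelled array. The gene wdhd1.L, for the And-1 protein that links polymerase alpha to the helicase, read 121.8 in the depleted-labelled array and 104.8 in the wildtype-labelled array, a log2 ratio of 0.21.

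Among the subunits of polymerases delta and epsilon, which extend the strands, pole4.L had the ratio of largest size of all 46 replication genes. It read 296.2 in the depleted-labelled array and 423.7 in the wildtype-labelled array, a log2 ratio of -0.53, or 1.44-fold lower. Its product pairs in vertebrates with that of pole3.L as a histone-fold dimer of polymerase epsilon. The gene pole3.L went the other way, at 169.2 in the depleted-labelled array and 144.7 in the wildtype-labelled array, a log2 ratio of 0.22. The second largest subunit gene pole2.L read 310.4 in the depleted-labelled array and 279.3 in the wildtype-labelled array, a log2 ratio of 0.14. The delta subunit gene pold2.L read 112.4 in the depleted-labelled array and 143.9 in the wildtype-labelled array, a log2 ratio of -0.37. The other delta subunit gene, pold3.L, was dim, at 36.0 in the depleted-labelled array and 22.6 in the wildtype-labelled array. The 8 measured genes of polymerases and primase had a median of 0.04, with 4 above 0 and 4 below.

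Among the members, the clamp and its loaders were the step of more than 1 measured gene in which all ratios had 1 sign. All 6 measured genes were below 0, with a median log2 ratio of -0.17, against -0.01 over all measured genes. Of all measured genes 49.2% were above 0. The planned grouping had joined the clamp with polymerases and primase in 1 step. That joined step straddles 0, because 4 of the 8 measured polymerase and primase genes were above it. The clamp gene pcna.L read 1393.1 in the depleted-labelled array and 1520.4 in the wildtype-labelled array, a log2 ratio of -0.14. Its homeolog pcna.S read 225.3 in the depleted-labelled array and 279.7 in the wildtype-labelled array, a log2 ratio of -0.32. A further probe set, which names both copies and so fell outside the choice of members, read 2200.1 in the depleted-labelled array and 2061.9 in the wildtype-labelled array, a log2 ratio of 0.08. The 3 pcna probe sets thus do not share a sign. Loader genes outside the choice of members, chtf18.L and chtf8.L, were above 0 as well, at 0.75 and 0.01, and are described with the related lists below. The single sign therefore holds only for the genes and probe sets that the rule named.

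The loader genes encode subunits of replication factor C, which opens the clamp around DNA. The gene rfc2.L had the lowest ratio, reading 294.0 in the depleted-labelled array and 388.6 in the wildtype-labelled array, a log2 ratio of -0.41 or 1.33-fold lower. The gene rfc4.L read 338.8 in the depleted-labelled array and 378.6 in the wildtype-labelled array, a log2 ratio of -0.17. The gene rfc5.L gave -0.16, at 96.1 in the depleted-labelled array and 107.0 in the wildtype-labelled array. The measured loader subunits rfc2.L, rfc4.L and rfc5.L, which sit in the same complex, were thus all lower in the depleted-labelled array. The members held no probe set of rfc1, so the complex was read only in part. Within the step, rfc2.L and pcna.S were lower by more than the pooled SD between probe sets and the other 4 genes by less. The gene rfc3.L was under the filter, and its brighter probe set also read lower, at 23.2 in the depleted-labelled array and 29.3 in the wildtype-labelled array. The gene dscc1.L, for a subunit of an alternative loader built on Ctf18, read 206.4 in the depleted-labelled array and 218.1 in the wildtype-labelled array, a log2 ratio of -0.09.

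Replication protein A coats single-stranded DNA, and 1 of its 3 subunit genes was measured. The gene rpa2.L read 526.2 in the depleted-labelled array and 448.3 in the wildtype-labelled array, a log2 ratio of 0.22. The dim genes rpa1.L and rpa3.S were on opposite sides, with rpa1.L at 35.2 in the depleted-labelled array and 24.8 in the wildtype-labelled array, and rpa3.S at 47.8 in the depleted-labelled array and 66.6 in the wildtype-labelled array.

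Of the genes that finish the lagging strand, both copies of the flap nuclease gene were above 0. The gene fen1.S read 139.9 in the depleted-labelled array and 115.9 in the wildtype-labelled array, a log2 ratio of 0.26. The gene fen1.L read 198.1 in the depleted-labelled array and 189.8 in the wildtype-labelled array, a log2 ratio of 0.05. The ligase gene lig1.L, which seals the nicks, gave -0.14 from 128.9 in the depleted-labelled array and 140.9 in the wildtype-labelled array. The decatenating topoisomerase gene top2a.L, which untangles the copied strands, read 310.6 in the depleted-labelled array and 239.9 in the wildtype-labelled array, a log2 ratio of 0.36. A dim second probe set of top2a.L read 58.9 in the depleted-labelled array and 37.6 in the wildtype-labelled array, on the same side.

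Ribonucleotide reductase makes the deoxynucleotides used in replication from ribonucleotides, and its genes were divided. The large subunit gene rrm1.L had 2 kept probe sets, which read 233.3 and 171.1 in the depleted-labelled array, against 215.4 and 119.2 in the wildtype-labelled array. Both were above 0 but by unlike amounts, 0.11 and 0.51, so the gene's mean of 0.31 depends on which is read. The small subunit gene rrm2.1.L read 1503.8 in the depleted-labelled array and 1245.9 in the wildtype-labelled array, a log2 ratio of 0.26. The related small subunit gene rrm2.2.L gave nearly the mirror value of -0.28, at 1069.4 in the depleted-labelled array and 1287.7 in the wildtype-labelled array. The gene rrm2b.S, whose mammalian counterpart is the p53-inducible small subunit, read 1017.1 in the depleted-labelled array and 1120.0 in the wildtype-labelled array, a log2 ratio of -0.15. The thymidylate synthase gene tyms.L was too dim to measure, at 22.8 in the depleted-labelled array and 15.6 in the wildtype-labelled array, the last of these below the floor. Supply of deoxynucleotides, with a median of 0.06 over 4 genes, thus had 2 genes above 0 and 2 below.

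Most measured homeolog pairs of replication genes had copies of opposite sign. In 7 pairs both copies were measured, and in 5 of them (ccne1, cdc6, gmnn, mcm6.2 and mcm7) the copies lay on either side of 0. Over all 524 measured pairs of the array 38.4% did. The median size of the difference between copies was 0.34 over the 7 pairs and 0.21 over all pairs. In 4 of the 5 the long copy was the one above 0, and in gmnn it was the short copy. Only in mcm7, at 0.26 and -0.40, were both copies further from 0 than the pooled SD between probe sets, 0.228. The other opposite signs rest on at least 1 copy within that scatter. With the brightest probe set in place of the mean, the copies of ccne1 had the same sign, which leaves 4 pairs. In the remaining pairs, fen1 and pcna, the copies had the same sign. Of the 33 measured replication genes of the long subgenome 20 were above 0, with a median of 0.06, and of the 13 of the short subgenome 4 were, with a median of -0.15. Over all measured genes 49.7% of the long and 48.4% of the short subgenome were above 0, and the medians were 0.00 for the long and -0.01 for the short. Near-identical copies can share signal, so a probe set named for 1 copy may also read the other.

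**Figure D4:**
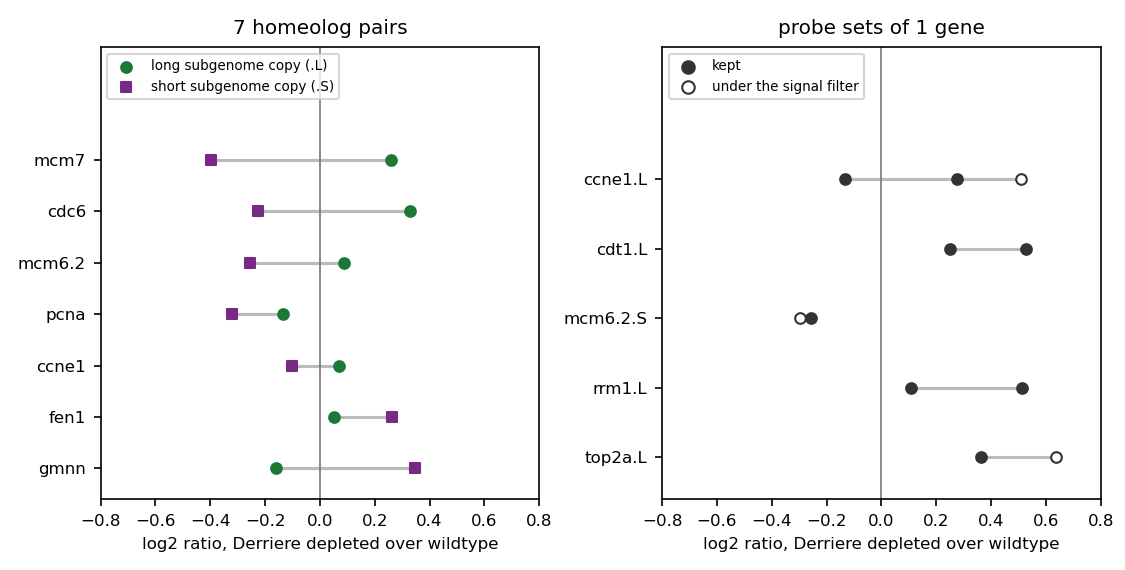
Left, log2 ratio (Derriere depleted over wildtype) of the long (circle) and short (square) subgenome copy in 7 homeolog pairs; right, the ratio of each probe set at or above the floor in both arrays for replication genes with several such probe sets, filled where kept and open where under the signal filter. Copies of 5 pairs lie on opposite sides of 0, and probe sets of ccne1.L do so as well.

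Of the 24 replication probe sets under the filter, 9 were below the floor in at least 1 array. Of the other 15, 6 were above 0, and 3 of these were at least 1.5-fold higher, those of mcm4.S, pold3.L and the second probe set of top2a.L. None of the 15 was at least 1.5-fold lower, while mcm3.L, at a log2 ratio of -0.58, came close. The share past 1.5-fold over all probe sets under the filter was not taken. These counts therefore have no background to be read against. The 24 probe sets had a median signal of 39.3 in the depleted-labelled array and 33.6 in the wildtype-labelled array, and MAS5 ratios are noisiest at such signals.

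Genes that work with the replication machinery were read from 6 lists of other genes. Of 11 measured licensing and firing partners, 0 passed 1.5-fold, 5 were above 0 and the median was -0.04. The lowest was fbxo5.S, for the Emi1 inhibitor of the anaphase-promoting complex, at 99.0 in the depleted-labelled array and 135.8 in the wildtype-labelled array, a log2 ratio of -0.46. The highest was donson.L, for a factor of helicase assembly, at 0.16. The Cdc7 activator gene dbf4.L read 0.02 and the Mcm-binding gene mcmbp.L 0.14.

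Among 12 measured genes of the S-phase checkpoint, which holds the cycle when forks stall, 8 were above 0, 0 passed 1.5-fold and the median was 0.08. The share above 0 was 66.7%, against 49.2% of all measured genes. Both copies of tipin, the partner of Timeless at the fork, were above 0. The gene tipin.L was the highest of the list, at 567.8 in the depleted-labelled array and 385.2 in the wildtype-labelled array, a log2 ratio of 0.55. Its homeolog tipin.S read 181.4 in the depleted-labelled array and 147.1 in the wildtype-labelled array, a log2 ratio of 0.29. The phosphatase gene cdc25a.L read 0.40 and the opposing kinase gene wee1.S 0.36, although its homeolog wee1.L read 0.01, while chek2.L, a checkpoint kinase gene, was lowest at -0.41.

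Of 23 further genes of nucleotide synthesis, 8 were above 0, or 34.8%, against 49.2% of all measured genes. The other 15 were below 0, while 0 of the list passed 1.5-fold and its median was -0.03. The lowest was dut.L, the dUTPase gene that keeps uracil out of DNA, at 468.0 in the depleted-labelled array and 666.3 in the wildtype-labelled array, a log2 ratio of -0.52. The nucleoside diphosphate kinase gene nme2.S read 2252.6 in the depleted-labelled array and 3178.5 in the wildtype-labelled array, a log2 ratio of -0.51. The highest was prps2.L, for the synthetase that makes the ribose donor of nucleotides, at 0.33. For most of the list the ratio was small, as for the thymidylate kinase gene dtymk.S at -0.14 and dctd.L, for a deaminase that feeds thymidylate synthesis, at 0.04.

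Chromatin assembly genes had a median of -0.01 over 19 genes, with 9 above 0 and 0 past 1.5-fold. The FACT subunit genes differed in sign, ssrp1.S at 0.41 and supt16h.S at -0.31. The histone mRNA binding gene slbp.L was lowest at -0.46, from 2963.5 in the depleted-labelled array and 4054.1 in the wildtype-labelled array, while its homeolog slbp.S read 0.19. The histone variant genes h2az1.L and h2az1.S both read -0.38. The chromatin assembly factor gene chaf1a.L read 0.23.

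Of 20 genes of E2F, RB and cell cycle control, 3 were at least 1.5-fold lower and 0 at least 1.5-fold higher, with 10 above 0 and a median of -0.02. Over all measured genes 3.08% were at least 1.5-fold lower and 2.00% at least 1.5-fold higher. The cyclin H gene ccnh.L, of the kinase that activates other cyclin-dependent kinases, was lowest at 641.4 in the depleted-labelled array and 1009.9 in the wildtype-labelled array, a log2 ratio of -0.66. The E2F partner gene tfdp1.S read 138.8 in the depleted-labelled array and 209.6 in the wildtype-labelled array, a log2 ratio of -0.60, and its homeolog tfdp1.L read -0.29. The S-phase and mitotic cyclin gene ccna2.S read 121.1 in the depleted-labelled array and 180.8 in the wildtype-labelled array, a log2 ratio of -0.59, and its homeolog ccna2.L read -0.18. The highest was the phosphatase gene cdc25c.L at 0.52. The cyclin D1 genes ccnd1.L and ccnd1.S read 0.32 and 0.26. The gene ccna2.S passed the 1.5-fold threshold, 0.585 in log2, only narrowly, at -0.5871. That margin is smaller than the centring shift of 0.0089, so the count of 3 depends on the centring. The related lists were not rerun in the alternative settings.

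In the list of clamp loading, maturation and repair, 13 of 19 genes were above 0 and the median was 0.11. The share above 0 was 68.4%, against 49.2% of all measured genes. Over all measured genes 2.00% were at least 1.5-fold higher and 3.08% at least 1.5-fold lower. The gene chtf18.L was the only one of the list past 1.5-fold, at 196.4 in the depleted-labelled array and 116.2 in the wildtype-labelled array, a log2 ratio of 0.75 or 1.68-fold. It encodes Ctf18, the large subunit of the alternative clamp loader to which dscc1.L and chtf8.L also contribute. These last subunit genes read -0.09 and 0.01, so the genes of the complex did not go together. The lowest of the list was apex1.L, for the abasic site nuclease of base excision repair, at -0.32.

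**Figure D5:**
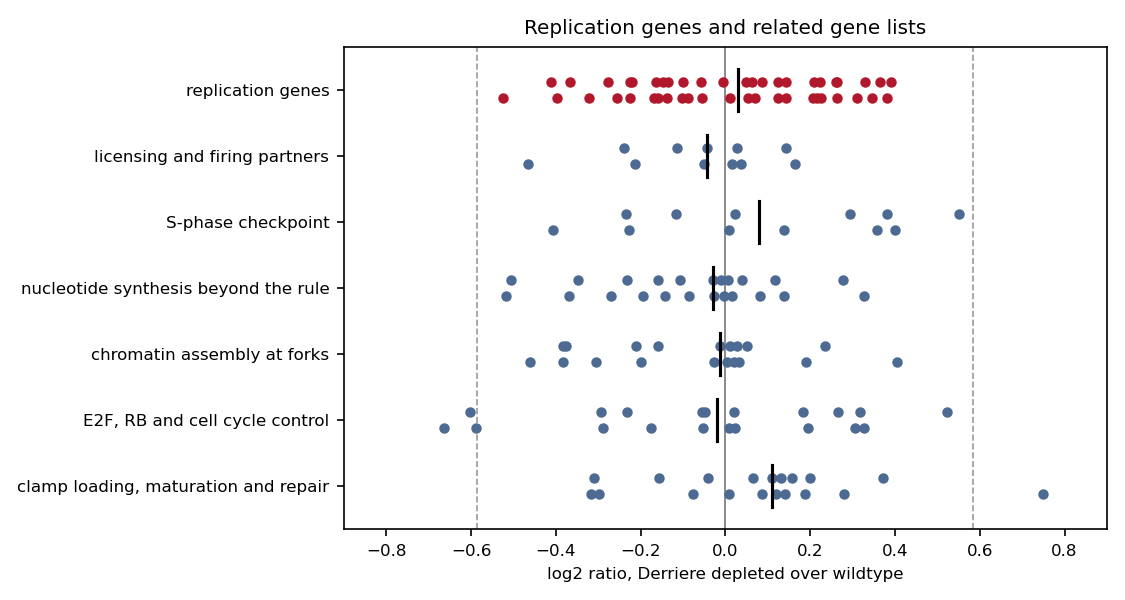
Log2 ratio (Derriere depleted over wildtype) of the 46 measured replication genes (red) and of the measured genes of 6 related lists (blue), with the median of each as a black bar and dashed lines at 1.5-fold. The list medians lie between -0.04 and 0.11, and 4 genes of the related lists lie past the dashed lines: chtf18.L above, and ccnh.L, tfdp1.S and ccna2.S below. The gene ccna2.S lies almost on the line, at -0.587.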

How the data were processed

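Total RNA was labelled with biotin for an Affymetrix Xenopus laevis array, 1 per group, grouped by title. The deposited table holds linear intensities per probe set, and per the submitters' processing notes MAS5 produced them. Not given in the sources used here are its version, its scaling target and any detection call. At low signal MAS5 values are noisy. Of 15611 probe sets, 120 controls were left out, and 9304 had 1 gene symbol, 195 several and 5992 none. All 73 member probe sets matched the Xenopus_laevis_v10.1 gene table by Entrez ID, with the same symbols.

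Signals below 19.7 were raised to it, values turned to log2, probe sets with a mean signal of 75 or more kept (7747), and ratios centred on their median (0.0089). A gene's value is the mean over its kept probe sets. Thresholds of 2-fold and 1.5-fold replace a test. Values were compared across 10 alternative settings, with the pooled SD between probe sets of a gene as the yardstick. This does not stand in for a replicate spread. The procedure was tested on simulated data, in which the planted changes were all larger than 2-fold. No measured replication gene differed by that much, so the simulation does not bear on ratios of the sizes reported. Members, lists and thresholds were chosen with earlier results of these data known. Any member gene could be named; of other lists, the highest, the lowest, those past 1.5-fold and, chosen after their values were seen, a few others were. Python 3.11.15, numpy 2.4.6, pandas 2.3.3, statsmodels 0.14.6 and matplotlib 3.10.9 were used.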

Additional observations from a re-analysis of the deposited data

How the results depend on the processing

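The 10 alternatives were all planned. No value of a single replication gene moved by the pooled SD of 0.228 or more, and 4 of 434 such values changed sign, those of mcm5.L in 3 settings and of ccne1.L, at -0.13, with the brightest probe set. Many of the 434 could hardly move. Removing the floor left them unchanged, since 0 kept replication probe sets were below it, and so did raising it. Leaving out centring shifted all by 0.0089, and the brightest probe set could alter only the 3 genes with more than 1 kept. Without the signal filter 2 of 63 replication genes were at least 1.5-fold higher, mcm4.S and pold3.L, against 0 of 46 with it, and 2.38% of all genes were so without the filter. With the filter at the 75th percentile 20 replication genes were left, 11 of them above 0, the median for origin recognition and licensing was 0.33 and that for polymerases and primase was -0.20. In each of these the construction leaves more or fewer genes. Other step medians near 0 also turned sign: origin recognition and licensing read -0.05 without the filter, nucleotide supply -0.15 with the stricter filter and -0.02 with the brightest probe set, and S-phase kinases and cyclins 0.03 with loess and 0.00 with quantile normalization, so these medians have no settled direction. All measured members of the clamp and clamp loader step were below 0 in 9 of the alternatives, over 3 to 7 genes. Most of these outcomes were fixed by construction. Changing or removing the floor left the values unchanged, and each gene had 1 kept probe set, so taking the brightest changed nothing. The shift of 0.0089 was small beside the value nearest 0, -0.0885, and the stricter filter mainly dropped genes. The exception was the setting that adds the pcna probe set naming both copies, with 6 of 7. The loader genes chtf18.L and chtf8.L, which are no members and were above 0, are not part of these counts. Copies had opposite signs in 4 of 7 homeolog pairs with the brightest probe set, against 36.8% of all measured pairs. Without the filter 6 of 9 pairs did, against 33.4% of all pairs. The stricter filter left 1 pair, which had opposite signs, against 37.3% of all pairs, and 1 pair is too few to read. All alternatives started from the deposited signals. No paired analysis was possible because only 1 array stood for each condition, and no replicate could be left out.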
